A study of Bos taurus with 56 samples.

Results

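The antioxidant and glutathione enzymes were followed as a group of genes in the bovine oviduct epithelium. Members were chosen by symbol, with earlier results of these data known. They were the glutathione peroxidases (GPX) and peroxiredoxins (PRDX), the cytosolic and mitochondrial glutathione S-transferases (GST), the thioredoxin reductases (TXNRD), and SOD1, SOD2, SOD3, CAT, TXN, TXN2, GCLC, GCLM, GSS, GSR, NQO1, HMOX1, HMOX2, NFE2L2 and KEAP1. Of the 31903 symbols of the count table, 47 met this rule. The 44 members with a mean of at least 1 CPM (counts scaled to library size) over the 12 conditions were compared. GSTT4 lay just inside this limit with a mean of 1.66 CPM, and GPX5 lay just outside with 0.529 CPM. GPX6 (0.348 CPM) and GSTO2 (0.066 CPM) were also left out.

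These enzymes remove superoxide and peroxides and keep protein thiols reduced. Peroxiredoxins and glutathione peroxidases reduce peroxides with electrons that reach them from NADPH through thioredoxin or glutathione, and glutathione S-transferases couple glutathione to reactive compounds. The transcription factor NRF2 (NFE2L2) drives many of these genes and is held in check by KEAP1. In the oviduct, gametes and early embryos are exposed to the reactive oxygen species that these enzymes control.

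The study asked how lactation and the location relative to the corpus luteum (CL) affect the oviduct epithelium of Holstein cattle. Libraries came from 5 nulliparous heifers, 5 post-partum non-lactating cows that were dried off at calving and never milked, and 4 post-partum lactating cows, all age-matched and all primiparous apart from the heifers. Every animal was synchronized with a progesterone device, a prostaglandin analogue and buserelin, was not inseminated, and was slaughtered on Day 3 after estrus, at about 60 days post-partum in the cows. From each of the 14 animals the ampulla, which lies towards the ovary, and the isthmus, which lies towards the uterus, were sampled ipsilateral and contralateral to the CL, which gave 56 libraries in 12 conditions. The cells were scraped gently from each segment, so that cells other than epithelium may have been collected with them. Animals are named here by group and a letter.

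Between 1901454 and 6836850 counts fell on genes in each library (median 4931502.5), and the members took 0.19 to 0.318% of them (median 0.224%). The sum of 8 ciliated cell markers lay between 1970 and 5646 CPM and that of 4 epithelial markers between 727 and 1513 CPM, whereas red blood cell markers did not pass 1.6 CPM in any library. Sums of fibroblast markers ranged from 9.88 to 360 CPM in the isthmus. Profiles were taken over 200 of the more highly expressed genes, those that varied most between the named animals relative to within them. This choice favours a match with the named animal. For 52 of the 56 libraries the profile correlated best with the other libraries of the animal named in their column. The remaining 4, all from the ipsilateral ampulla, did not: a library of the non-lactating group carried the number of lactating cow B and matched non-lactating cow C, a library of the lactating group carried the number of non-lactating cow C and matched lactating cow B, and the library of heifer B matched non-lactating cow B while the library of non-lactating cow B matched heifer B. Where leaving out these 4 libraries changed a call of a member, the value without them is given.

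By family, the 6 peroxiredoxins summed to 562 to 1413 CPM per library (median 748 CPM), the 8 glutathione peroxidases to 229 to 736 CPM (median 402 CPM) and the 15 glutathione S-transferases to 203 to 472 CPM (median 274 CPM). The 5 members with the highest mean were PRDX6, which reduces peroxides with glutathione (373 CPM), catalase CAT (219 CPM), the cytosolic glutathione peroxidase GPX1 (203 CPM), NFE2L2 (184 CPM) and the mitochondrial peroxiredoxin PRDX3 (128 CPM). CPM are not corrected for transcript length, so this order is one of counts and not of transcript numbers. The enzymes of glutathione synthesis and reduction, GCLC, GCLM, GSS and GSR, together reached 40.9 to 99.4 CPM. Several members are close relatives and neighbours in the bovine genome annotation (GSTA2, GSTA3, GSTA4 and GSTA5, then GSTM1, GSTM2 and GSTM3, then GSTT1, GSTT2 and GSTT4). Reads that aligned to several places were not counted, so values of these genes are uncertain.

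**Figure D1:**
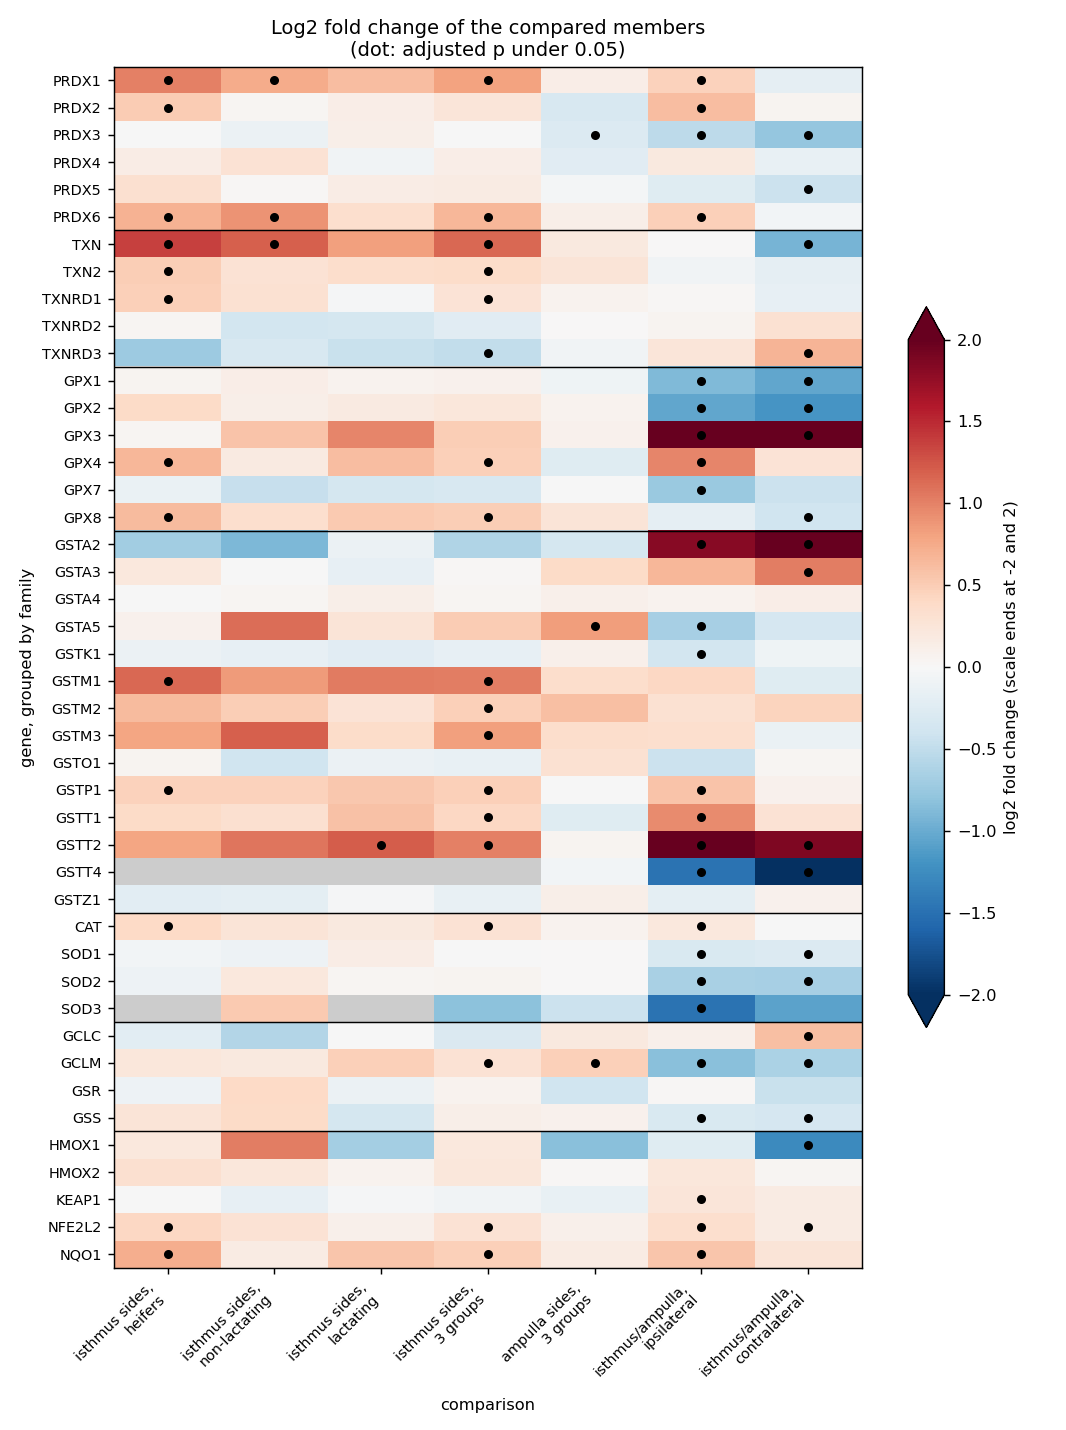
Log2 fold change (colour, from -2 to 2) of each compared member (rows, by family) in 7 comparisons (columns): ipsilateral over contralateral isthmus in each metabolic group and in the 3 together, ipsilateral over contralateral ampulla in the 3 together, and isthmus over ampulla on each side. Dots mark an adjusted p under 0.05 and grey cells mark members that were not tested; TXN, PRDX1 and PRDX6 are red between the sides of the isthmus, and GPX3, GSTT2 and GSTA2 give the deepest red between the regions.

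Most of the members that differed between the sides of the CL did so in the isthmus. With the 3 metabolic groups together, 17 of the 43 members tested were higher and 1 was lower in the ipsilateral than in the contralateral isthmus (edgeR's quasi-likelihood test, Benjamini-Hochberg adjusted p under 0.05 over all genes tested). Over all genes, 14.9% were higher and 13.5% were lower. The median log2 fold change was 0.22 for the members and -0.01 for all genes tested. In scraped tissue, fewer cells of a type and less RNA per cell cannot be told apart.

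Thioredoxin had the largest called log2 fold change of the members, and 2 of the 6 peroxiredoxins rose with it. TXN, the cytosolic thioredoxin that recycles peroxiredoxins, ranged from 25.9 to 78.7 CPM (median 48.6) in the 14 ipsilateral isthmus libraries and from 16.9 to 32.5 CPM (median 20.5) in the contralateral ones. It was higher on the ipsilateral side in 14 of 14 animals, by a log2 fold change of 1.15 (SE 0.13, adjusted p = 5.56e-07 in edgeR), a 2.21-fold difference. PRDX1, a cytosolic peroxiredoxin, ranged from 107 to 213 CPM (median 156) ipsilaterally and from 69.4 to 112 CPM (median 90.5) contralaterally. The ranges of PRDX1 met only at their ends, and it too was higher in 14 of 14 animals (log2 fold change 0.80, SE 0.09, adjusted p = 3.25e-07). PRDX6 ranged from 243 to 741 CPM (median 507) against 220 to 460 CPM (median 298), again higher in 14 of 14 animals but with wide overlap between animals (log2 fold change 0.67, SE 0.12, adjusted p = 0.000142). The other 4 peroxiredoxins were not called, PRDX2 with a log2 fold change of 0.23 (adjusted p = 0.0776). When the animal was added as a replicate block, PRDX2 passed the threshold (adjusted p = 0.0432).

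The rest of the thioredoxin system moved by less. Mitochondrial thioredoxin TXN2 was higher in the ipsilateral isthmus of 13 of 14 animals (log2 fold change 0.37, SE 0.07, adjusted p = 0.000248). TXNRD1, the cytosolic thioredoxin reductase, was higher in 12 of 14 animals (0.27, SE 0.09, adjusted p = 0.0282). That call was lost when heifer A, B or C or non-lactating cow A or D was left out. TXNRD3, the reductase best known from the testis, was the member that fell, by 0.50 on the log2 scale (SE 0.13, adjusted p = 0.00509), and was lower in 11 of 14 animals.

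Among the glutathione peroxidases, 2 of the 6 compared rose in the ipsilateral isthmus. GPX4, which reduces lipid peroxides within membranes, was higher in 12 of 14 animals (log2 fold change 0.48, SE 0.12, adjusted p = 0.00399). GPX8, a peroxidase of the endoplasmic reticulum, was higher in 13 of 14 animals (0.49, SE 0.10, adjusted p = 0.000303). The secreted peroxidase GPX3 was higher in 10 of 14 animals and was called only with the replicate block (0.54, adjusted p = 0.0493).

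Glutathione S-transferases contributed 6 of the 17 higher members, of 13 tested. GSTT2, of the theta class, ranged from 17.1 to 57.2 CPM (median 36) in the ipsilateral isthmus and from 8.72 to 39.8 CPM (median 16) in the contralateral isthmus. It was higher in 12 of 14 animals, by a log2 fold change of 1.01 (SE 0.17, adjusted p = 8.06e-05). GSTM1, of the mu class, was higher in 14 of 14 animals (1.02, SE 0.22, adjusted p = 0.000897). GSTM1 varied widely between animals, from 9.43 CPM in the ipsilateral isthmus of lactating cow C to 68.8 CPM in heifer C. GSTP1, the pi class enzyme, was higher in 14 of 14 animals (0.48, SE 0.09, adjusted p = 0.000277). GSTM2 (0.48, adjusted p = 0.0186), GSTT1 (0.42, adjusted p = 0.0201) and GSTM3 (0.83, adjusted p = 0.0316) were also higher. GSTT1 lost its call without lactating cow D, and GSTM3 lost it without heifer E, lactating cow D or non-lactating cow A, B or D. The alpha class enzyme GSTA2 went the other way in 12 of 14 animals and was called lower only with the replicate block (-0.70, adjusted p = 0.00392), as was GSTA5 higher (0.56, adjusted p = 0.0479).

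CAT, which breaks down hydrogen peroxide in peroxisomes, was higher in the ipsilateral isthmus of 14 of 14 animals by a small amount (log2 fold change 0.29, SE 0.06, adjusted p = 0.000392). None of the 3 superoxide dismutases was called. GCLM, the regulatory subunit of the enzyme that limits glutathione synthesis, passed the threshold narrowly (0.29, adjusted p = 0.0454) and did not pass it with the replicate block (adjusted p = 0.0609). GCLM also lost its call without heifer C, lactating cow A or B, or non-lactating cow B, C or E. The catalytic subunit GCLC had a log2 fold change of -0.29 (adjusted p = 0.0625). NFE2L2 was higher in 13 of 14 animals (0.28, SE 0.06, adjusted p = 0.000458), as was NQO1, a quinone reductase and classical target of NRF2 (0.48, SE 0.16, adjusted p = 0.0205). The haem oxygenases HMOX1 and HMOX2 and KEAP1 were not called. With the replicate block 21 members were called in place of 18, against 32.6% of all genes called in either direction in that fit.

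**Figure D2:**
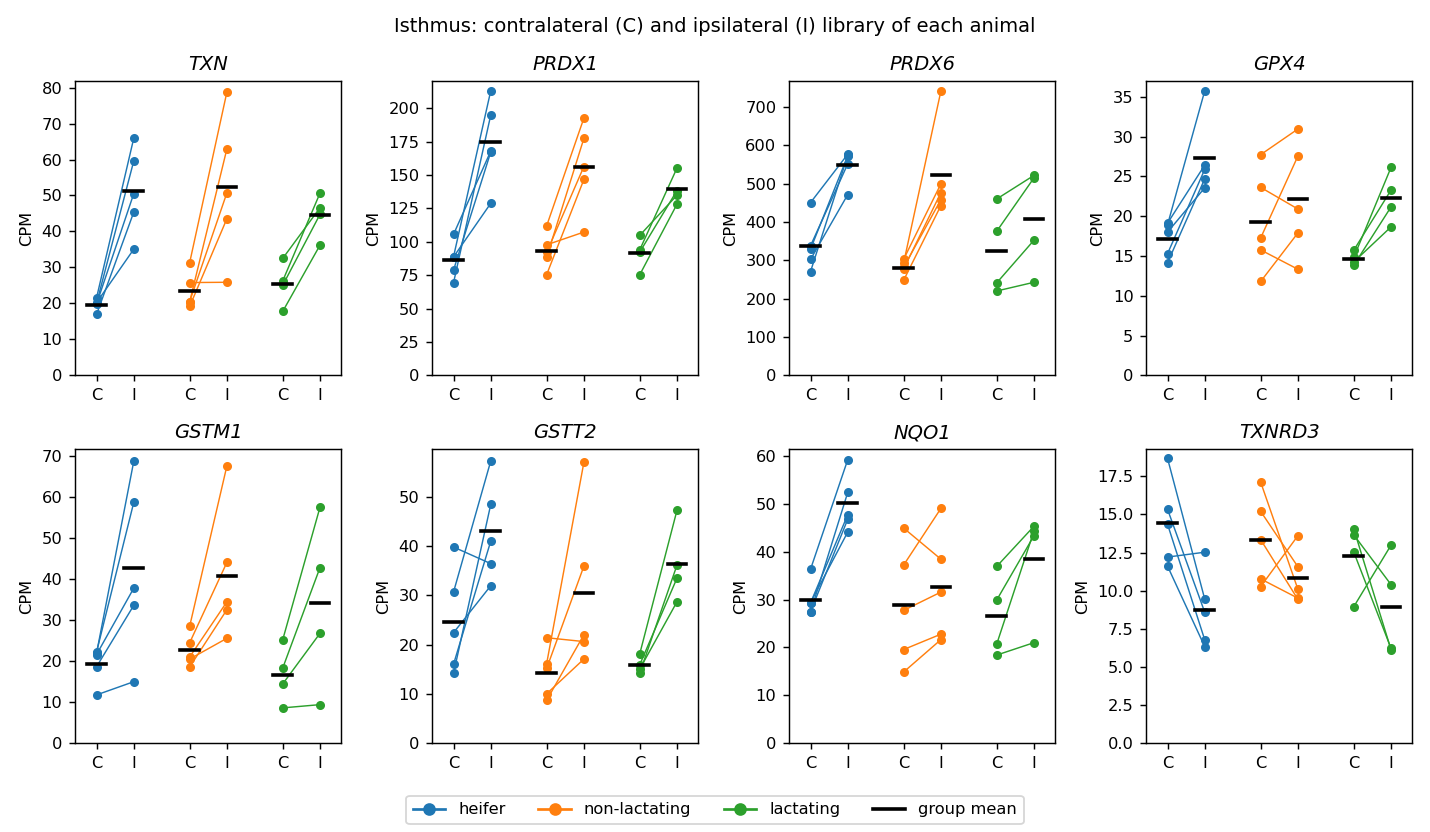
Expression of 8 members (CPM, axes from 0) in each isthmus library, contralateral (C) and ipsilateral (I) to the CL, with a line joining the libraries of an animal, colours for heifers, non-lactating and lactating cows, and black bars for group means. TXN, PRDX1, PRDX6 and GSTM1 rise from the contralateral to the ipsilateral side in 14 of 14 animals.

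Markers of other cells also differed between the sides of the isthmus. Of 4 epithelial markers, 3 were higher ipsilaterally (KRT8 by 0.52, KRT18 by 0.44 and CDH1 by 0.24 on the log2 scale), and their sum ranged from 991 to 1513 CPM against 917 to 1152 CPM. The sum of the ciliated cell markers was 1970 to 3332 CPM ipsilaterally and 2557 to 3706 CPM contralaterally, with 1 of 8 called higher and 1 called lower. Of 5 secretory cell markers 2 were higher, of 4 endothelial markers 1 was lower, and the B or plasma cell list had 1 gene tested, which was higher. None of the tested smooth muscle (3), fibroblast (6), macrophage (4) or lymphocyte (5) markers was called. Their part in the members' differences was not tested.

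Within heifers alone, 13 of 42 members tested were called, each of them higher in the ipsilateral isthmus, against 5.71% of all genes higher. TXN was at 45.4, 50.5, 59.6, 35.1 and 65.9 CPM in the ipsilateral isthmus of heifers A to E, and at 16.9, 19.8, 20.0, 20.2 and 21.5 CPM in the contralateral isthmus. The groups of TXN did not overlap, with means of 51.3 ± 12.1 and 19.7 ± 1.68 CPM (SD, n = 5) and a difference of 1.37 on the log2 scale (SE 0.16, edgeR adjusted p = 0.00402). PRDX1 was at 167, 213, 168, 129 and 195 CPM against 78.8, 88.8, 106, 88.7 and 69.4 CPM, also without overlap (1.01, SE 0.15, adjusted p = 0.0056). NQO1 was at 44.1, 47.7, 59.2, 52.4 and 46.8 CPM against 29.4, 29.3, 36.3, 27.4 and 27.5 CPM, with every ipsilateral library above every contralateral one (0.73, SE 0.12, adjusted p = 0.00598). The peroxidases PRDX6 and GPX4 were likewise higher in every ipsilateral library than in any contralateral one. PRDX6 was at 574, 551, 471, 576 and 573 CPM against 271, 338, 302, 450 and 329 CPM (0.69, SE 0.13, adjusted p = 0.00778). GPX4 was at 24.7, 35.8, 26.4, 23.6 and 25.9 CPM against 14.2, 18.9, 19.1, 18.0 and 15.3 CPM (0.67, adjusted p = 0.0175).

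The other 8 called members in heifers were NFE2L2, GSTP1, TXN2, TXNRD1, GPX8, CAT, GSTM1 and PRDX2, with log2 fold changes from 0.40 for CAT to 1.16 for GSTM1. Of the 13, GSTM1 overlapped between the sides and the other 12 did not. These 13 had already passed the test on the same libraries, so the separation is no further support. The share of all genes without overlap is not given here. DESeq2 and the replicate block each called 15 members, with GSTT2 higher and TXNRD3 lower in addition. More of all genes were called as well, 13% in DESeq2 and 14.1% with the block, in either direction. The main fit called 5.71% of all genes higher and 4.34% lower. The count fell to 3 without heifer E, to 4 without heifer A, to 5 without heifer B and to 8 without heifer C, and was 14 without heifer D. TXN, PRDX1 and NQO1 were called under each of these. Fits without a heifer rest on fewer libraries, and their share of all genes called is not given here.

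In non-lactating cows, 3 of 43 members tested were higher in the ipsilateral isthmus, against 2.94% of all genes. PRDX6 was at 741, 476, 443, 458 and 499 CPM in cows A to E ipsilaterally and at 293, 278, 248, 282 and 303 CPM contralaterally. These groups did not overlap (log2 fold change 0.90, adjusted p = 0.00466). TXN was at 50.7, 78.7, 43.5, 62.9 and 25.9 CPM against 20.5, 31.3, 19.2, 20.4 and 25.8 CPM. Cow E had nearly equal values on both sides, and the groups overlapped (1.19, adjusted p = 0.0216). PRDX1 was at 193, 147, 156, 177 and 107 CPM against 112, 75.4, 92.1, 88.5 and 97.7 CPM, with cow E ipsilaterally below cow A contralaterally (0.75, adjusted p = 0.0183). With the replicate block the count was 6, adding GSTM1 (0.80, adjusted p = 0.0113), GSTT2 (1.01, adjusted p = 0.0323) and, in the lower direction, GSTA2 (-1.05, adjusted p = 0.0356), against 7.48% of all genes called in either direction in that fit. Without non-lactating cow C or D the count was 1. PRDX6 kept its call whichever cow was left out, whereas TXN and PRDX1 each kept it in 2 of 5 fits.

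In lactating cows, 1 of 42 members tested was called, GSTT2, against 0.187% of all genes. GSTT2 was at 28.7, 33.5, 36.1 and 47.2 CPM in the ipsilateral isthmus of cows A to D and at 15.1, 15.9, 14.3 and 18.1 CPM in the contralateral isthmus. The groups did not overlap (log2 fold change 1.21, SE 0.18, adjusted p = 0.0378), but the call was lost whichever cow was left out. TXN was at 50.7, 36.2, 44.8 and 46.6 CPM against 26.3, 17.8, 25.1 and 32.5 CPM, without overlap and without passing the threshold (0.82, adjusted p = 0.122). PRDX1 was at 138, 128, 135 and 155 CPM against 92.3, 75.3, 105 and 94.0 CPM, likewise without overlap (0.61, adjusted p = 0.101). With the replicate block 4 members were called, GSTT2 (adjusted p = 0.00688), TXN (adjusted p = 0.0227), PRDX1 (adjusted p = 0.0315) and GSTM1 (adjusted p = 0.0434), against 2.32% of all genes in that fit. In a test of the difference of the side effect between the 3 metabolic groups, 0 of 43 members passed in edgeR and 0 in DESeq2, as did 0.0% of all genes. At an unadjusted p under 0.05 in edgeR there was 1 member, GSS, which completes glutathione synthesis, against 2.05% of all genes. With the replicate block, 5 members had an unadjusted p under 0.05, against 4.68% of all genes. After adjustment 0 members passed in that fit, against 0.00665% of all genes. A difference in side effect between heifers, non-lactating and lactating cows was therefore not shown for any member.

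In the ampulla, few members differed between sides. Within a metabolic group none was called by edgeR. In heifers 0 of the members passed (0.0% of all genes) and 4 had an unadjusted p under 0.05 (9.2% of all genes). There DESeq2 called 1, HMOX1, an inducible haem-degrading enzyme, lower ipsilaterally (adjusted p = 0.0317), against 0.459% of all genes. In non-lactating cows 0 members passed (0.0947% of all genes) and 3 had an unadjusted p under 0.05 (11.1%). In lactating cows 0 passed (0.0%) and 1 had an unadjusted p under 0.05 (4.26%). DESeq2 called 0 members in both cow groups. The difference of the side effect between metabolic groups gave 0 of 44 members (0.0% of all genes), and 0 at an unadjusted p under 0.05 (1.15%), with 0 in DESeq2.

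With the metabolic groups together, 3 of 44 members differed between the sides of the ampulla, 2 higher against 2.57% of all genes and 1 lower against 2.42%. GCLM ranged from 25.4 to 56.1 CPM (median 40.3) in the ipsilateral ampulla and from 20.1 to 43.9 CPM (median 27.7) in the contralateral ampulla. It was higher in 12 of the 12 animals with a pair of ampulla libraries, and in 10 of 10 without heifer B and non-lactating cow B, whose libraries matched each other's animal (log2 fold change 0.47, SE 0.12, adjusted p = 0.0177). PRDX3 ranged from 97 to 182 CPM (median 139) against 146 to 201 CPM (median 173), and was lower in 12 of 12 animals, or in 10 of 10 without those (-0.27, SE 0.08, adjusted p = 0.0476). GSTA5, an alpha class transferase, ranged from 4.26 to 22.4 CPM (median 12.6) against 3 to 12.2 CPM (median 6.89), and was higher in 8 of 12 animals, or in 6 of 10 (0.83, SE 0.24, adjusted p = 0.0414). Without the 4 libraries that matched another animal, only GCLM passed (0.56, adjusted p = 0.0172), against 2.43% of all genes in either direction. PRDX3 was then at -0.32 (adjusted p = 0.0547) and GSTA5 at 0.71 (adjusted p = 0.155). With 1 animal left out at a time, GCLM kept its call in 14 of 14 fits, GSTA5 in 5 and PRDX3 in 3. Without heifer A, B or C or non-lactating cow A or C, only GCLM was called. With the replicate block GCLM and PRDX3 passed (adjusted p = 0.00128 and 0.0122), and GSTA5 did not (adjusted p = 0.0506). In that fit 7.23% of all genes were called. The block paired these 4 libraries by the number in their column. With the block and without the 4 libraries, GCLM kept its call, whereas PRDX3 and GSTA5 lost theirs. That fit called 2 members, 1 higher and 1 lower, against 2.95% of all genes in either direction. None of the cell type markers tested was called between the sides of the ampulla.

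The effect of side differed between isthmus and ampulla for 4 of 44 members, in each case more positive in the isthmus, against 3.19% of all genes. The difference in log2 fold change was 0.94 for TXN (SE 0.17, adjusted p = 0.000516), 0.65 for PRDX1 (SE 0.16, adjusted p = 0.00952), 0.73 for GPX4 (SE 0.20, adjusted p = 0.0265) and 0.65 for GSTT1 (SE 0.19, adjusted p = 0.0359). In the ampulla itself the log2 fold changes were 0.20 for TXN (adjusted p = 0.286) and 0.14 for PRDX1 (adjusted p = 0.575), and they were negative for GPX4 (-0.24, adjusted p = 0.422) and GSTT1 (-0.24, adjusted p = 0.28). PRDX1 was nevertheless higher ipsilaterally in 11 of 12 ampulla pairs and TXN in 10 of 12, and in 9 and 8 of the 10 pairs without heifer B and non-lactating cow B. Without the 4 libraries that matched another animal, TXN (0.86, adjusted p = 0.00374) and PRDX1 (0.58, adjusted p = 0.0451) passed, against 2.75% of all genes. GPX4 (adjusted p = 0.0519) and GSTT1 (adjusted p = 0.097) did not pass. With 1 animal left out at a time, TXN and PRDX1 kept their calls in 14 of 14 fits, GPX4 in 9 and GSTT1 in 6. TXN and PRDX1 were the 2 that passed without heifer E, lactating cow D or non-lactating cow B. With the replicate block 8 members passed, against 6.89% of all genes in either direction. The block added GSTM1 (adjusted p = 0.0402), GSTT2 (adjusted p = 0.0373), PRDX2 (adjusted p = 0.0238) and PRDX6 (adjusted p = 0.0334). When the 4 libraries were left out as well, 5 members passed, against 4.32% of all genes.

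**Figure D3:**
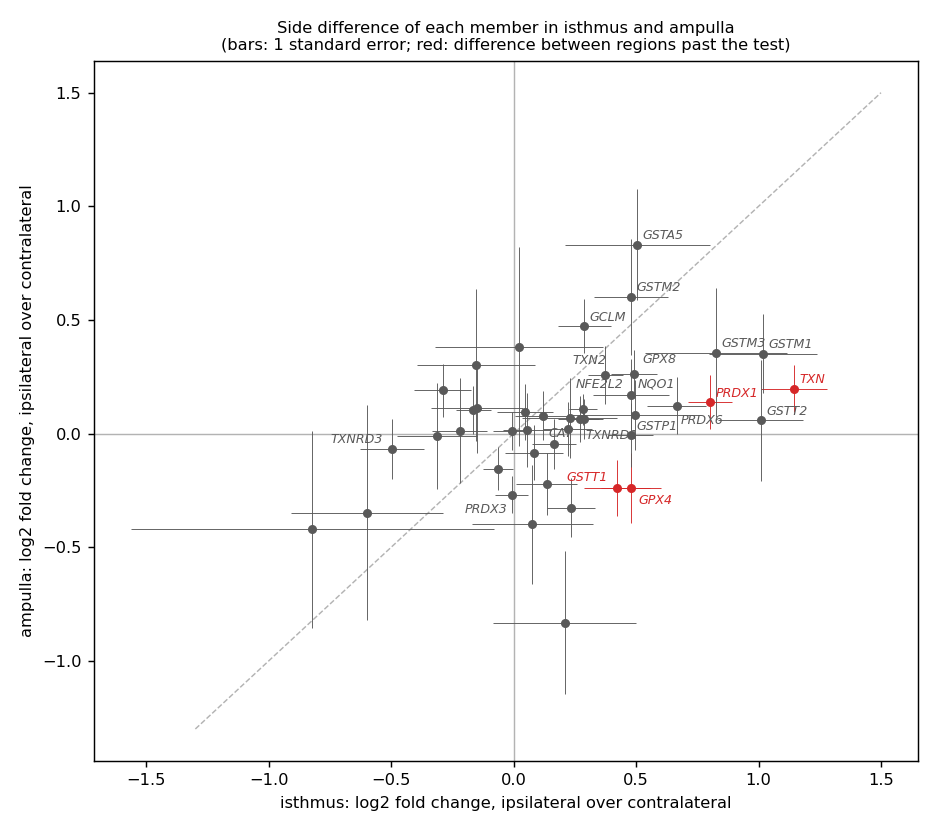
Log2 fold change between the ipsilateral and the contralateral side in the isthmus (horizontal axis) and in the ampulla (vertical axis) for the 43 members tested in both, with the 3 metabolic groups together and bars of 1 standard error. TXN, PRDX1, GPX4 and GSTT1 (red), for which the difference between regions passed the test, lie to the right of the dashed line of equal change.

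The region of the oviduct separated the members about as often as it separated all genes. On the ipsilateral side, 13 of 44 members were higher and 12 lower in the isthmus than in the ampulla, against 24.5% and 25.8% of all genes. On the contralateral side 7 were higher and 12 lower, against 21.5% and 22.0%. Of the members called on either side, 12 were called on both and in the same direction, 4 of them higher and 8 lower in the isthmus. The share of all genes called on both sides was not counted.

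GPX3 showed the widest difference of any member between the regions. It lay between 9.18 and 31 CPM (median 17.6) in the contralateral ampulla and between 13.6 and 31.3 CPM (median 20.3) in the ipsilateral ampulla, but between 46 and 483 CPM (median 166) and between 107 and 471 CPM (median 208) in the contralateral and ipsilateral isthmus. No isthmus library of GPX3 reached down to the ampulla libraries, and the isthmus was 12.7-fold higher on the ipsilateral side (log2 fold change 3.66, SE 0.21, adjusted p = 2.32e-14) and 9.55-fold on the contralateral side (3.26, SE 0.25, adjusted p = 7.61e-12). GSTT2 was at 1.91 to 9.54 CPM in the ipsilateral ampulla and at 17.1 to 57.2 CPM in the ipsilateral isthmus, without overlap (2.81, SE 0.22, adjusted p = 1.06e-11). On the contralateral side GSTT2 spanned 1.34 to 9.1 CPM and 8.72 to 39.8 CPM (1.87, SE 0.22, adjusted p = 4.97e-08). GSTA2 was higher in the isthmus on both sides (1.82 and 2.08, adjusted p = 8.54e-05 and 9.64e-05), at a median of 8.5 CPM ipsilaterally and 15.7 CPM contralaterally. NFE2L2 was the fourth (0.33 and 0.17), and its contralateral call was lost without heifer B or lactating cow C or D.

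Of the glutathione peroxidases, GPX1 and GPX2 ran against GPX3 on both sides. GPX1 was at 204 to 347 CPM (median 254) in the ipsilateral ampulla and at 95.6 to 223 CPM (median 132) in the ipsilateral isthmus, a decrease of 0.88 on the log2 scale (adjusted p = 3.74e-08), and had -1.04 on the contralateral side. GPX2, known from the gut epithelium, was lower by 1.04 ipsilaterally and had -1.19 contralaterally. PRDX3 was lower in the isthmus on both sides (-0.52 and -0.77, adjusted p = 6.34e-06 and 1.95e-11), as were the mitochondrial superoxide dismutase SOD2 (-0.65 and -0.67), the cytosolic SOD1 (-0.31 and -0.27), GCLM (-0.83 and -0.63), GSS (-0.31 and -0.34) and GSTT4 (-1.47 and -2.07).

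TXN, by contrast, differed between regions on one side of the animal. On the contralateral side it was at 34.3 to 56.9 CPM in the ampulla (median 42.3) and at 16.9 to 32.5 CPM in the isthmus (median 20.5), without overlap (log2 fold change -0.92, SE 0.10, adjusted p = 5.18e-09). On the ipsilateral side the medians were 52.7 CPM in the ampulla and 48.6 CPM in the isthmus (0.01, SE 0.13, adjusted p = 0.956). This is the same difference of effects that the test between isthmus and ampulla gave above for TXN.

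Called on the ipsilateral side only were GPX4 (0.98), GSTT1 (0.94), PRDX2 (0.61), GSTP1 (0.57), NQO1 (0.55), PRDX6 (0.48), PRDX1 (0.47), KEAP1 (0.24) and CAT (0.21), all higher in the isthmus, and SOD3 (-1.47), the endoplasmic reticulum peroxidase GPX7 (-0.74), GSTA5 (-0.67) and GSTK1 (-0.37), lower. Called on the contralateral side only were GSTA3 (1.03), TXNRD3 (0.68) and GCLC (0.60), higher in the isthmus, and HMOX1 (-1.28), PRDX5 (-0.44), GPX8 (-0.40) and TXN, lower. Apart from the 4 members above, a difference between the sides in these region effects was not shown. The calls of CAT (0.19, adjusted p = 0.07) and GSTA5 (-0.57, adjusted p = 0.129) were lost without the libraries that matched another animal, whereas the omega class transferase GSTO1 (-0.65, adjusted p = 0.0188) and PRDX5 (-0.31, adjusted p = 0.0235) were then called lower in the isthmus on the ipsilateral side. With the replicate block, PRDX5 was also called on the ipsilateral side (-0.23, adjusted p = 0.0476), and GSTT1 (0.30, adjusted p = 0.0455) and SOD3 (-1.53, adjusted p = 0.0195) were called on the contralateral side. GSTA3 lost its call in DESeq2 (adjusted p = 0.053) and when heifer A or D, lactating cow C or D, or non-lactating cow B, D or E was left out.

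Cell type markers moved with the region as well. In the isthmus 7 of 8 ciliated cell markers were lower on each side, and their sum was 1970 to 3706 CPM there against 3076 to 5646 CPM in the ampulla. Of 4 endothelial markers 3 were lower on each side. Epithelial markers were higher for 4 of 4 on the ipsilateral side and for 2 of 4 on the contralateral side. Fibroblast markers were higher for 2 and lower for 1 on each side, of 5 tested ipsilaterally and 6 contralaterally, with LUM higher by 6.32 and 6.79 and DCN by 2.70 and 3.71 on the log2 scale. Of 3 smooth muscle markers 1 was higher and 1 lower on each side, with MYH11 higher by 5.13 ipsilaterally and 4.89 contralaterally, ACTA2 lower ipsilaterally and DES lower contralaterally. Of 5 secretory cell markers, SLPI was higher by 4.34 and 5.49 and LTF by 3.99 on the ipsilateral side, with PAX8 lower ipsilaterally and KRT7 contralaterally. Of 5 macrophage markers 1 was lower on the ipsilateral side, and no lymphocyte or B or plasma cell marker was called on either side. The part of these cell types in the members' region differences was not tested.

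**Figure D4:**
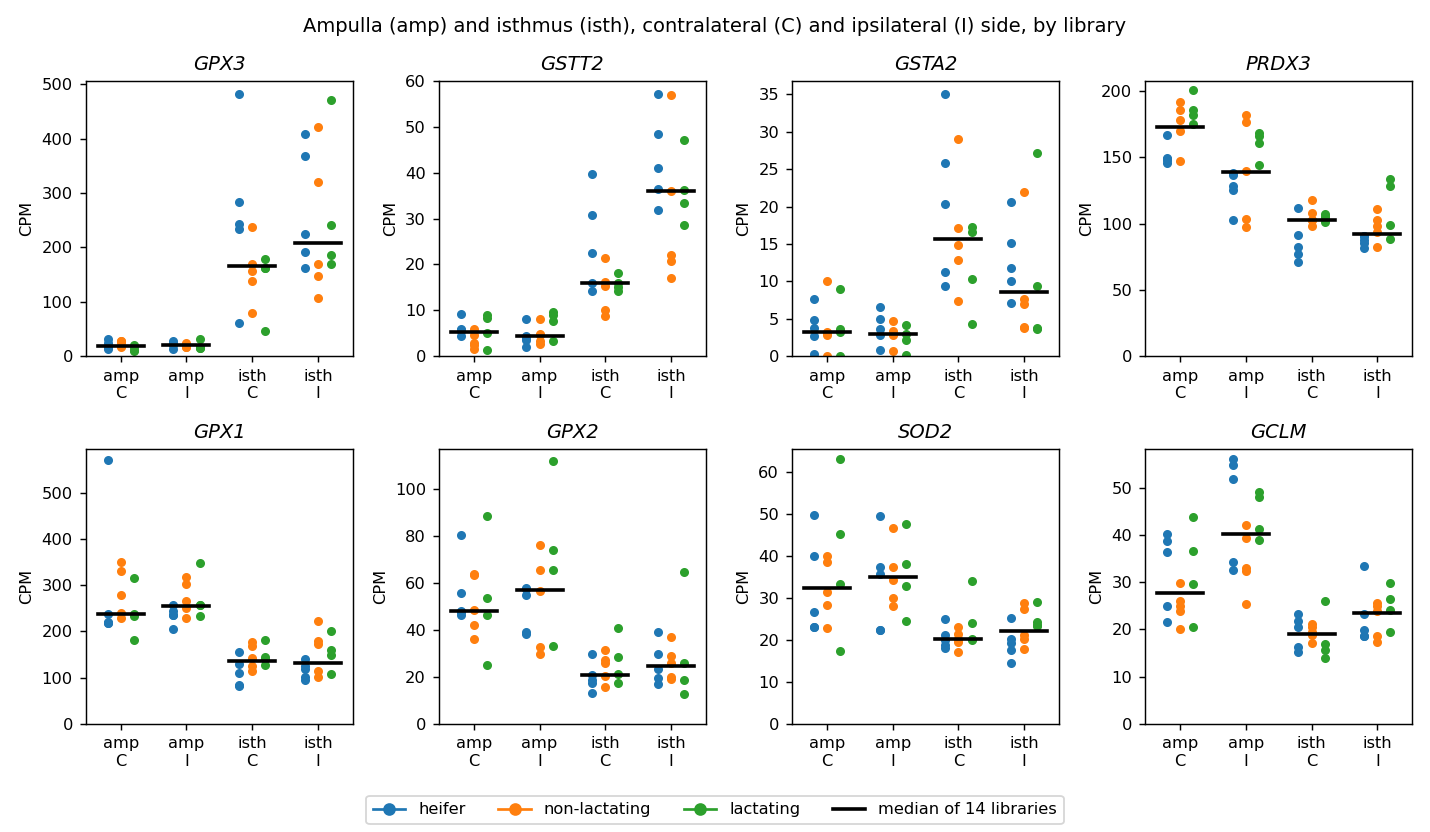
Expression of 8 members (CPM, axes from 0) in the 56 libraries, arranged by region and side, with points coloured by metabolic group and black bars at the median of 14 libraries. GPX3 in the isthmus lies above every ampulla library, whereas the medians of PRDX3, GPX1, GPX2, SOD2 and GCLM are lower in the isthmus.

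Metabolic status gave no called member in edgeR and 1 in DESeq2. In each of the 12 comparisons of metabolic status within a region and side, 0 members passed in edgeR. In the ipsilateral isthmus, TXNRD1 had the smallest p of the members between lactating cows and heifers. It was at 43.1, 47.7, 44.3, 41.3 and 43.1 CPM in heifers and at 32.7, 24.3, 27.9 and 27.8 CPM in lactating cows, without overlap. The log2 fold change was -0.63 (SE 0.12, unadjusted p = 0.000234 in edgeR, adjusted p = 0.244). DESeq2 called it (adjusted p = 0.00489), against 0.85% of all genes in that fit. TXNRD1 was the 1 member that DESeq2 called in any of the 12 comparisons. The means were 43.9 ± 2.38 CPM (SD, n = 5) and 28.2 ± 3.42 CPM (SD, n = 4). In edgeR, 0.0% of all genes passed and 10.4% had an unadjusted p under 0.05, and 8 members did.

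Non-lactating cows had TXNRD1 at 33.8, 25.9, 39.1, 38.8 and 28.3 CPM in the ipsilateral isthmus, also below every heifer (log2 fold change -0.38, adjusted p = 0.278). Both cow groups were set against the same heifers. In that comparison NQO1 had the smallest p (-0.60, unadjusted p = 0.0124 and adjusted p = 0.278 in edgeR), with values of 22.8, 21.6, 49.0, 31.6 and 38.4 CPM in the cows that overlapped those of the heifers. Of the members, 5 had an unadjusted p under 0.05, against 11.8% of all genes, of which 0.0073% passed after adjustment. Between lactating and non-lactating cows 0 members had an unadjusted p under 0.05, against 6.26% of all genes (0.0% after adjustment), and the smallest was for GSTM2 (-0.48, unadjusted p = 0.0633 in edgeR).

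In the ipsilateral ampulla, PRDX3 had the smallest p between lactating cows and heifers (0.35, unadjusted p = 0.0112 and adjusted p = 0.515 in edgeR). It was at 145, 161, 166 and 168 CPM in the lactating group and at 103, 125, 129, 137 and 138 CPM in the heifer group, without overlap. Of the members, 2 had an unadjusted p under 0.05, against 7.15% of all genes (0.0% after adjustment). PRDX3 was also without overlap in the contralateral ampulla, at 175, 182, 186 and 201 CPM in lactating cows and 146, 148, 148, 149 and 167 CPM in heifers (0.32). In the isthmus it had log2 fold changes of 0.38 on the ipsilateral and 0.27 on the contralateral side, and none of these 4 passed the threshold. GCLM had the smallest p in the other comparisons of the ipsilateral ampulla. Its log2 fold change was -0.41 between non-lactating cows and heifers (unadjusted p = 0.0426 in edgeR), where 1 member had an unadjusted p under 0.05 against 3.63% of all genes (0.0% after adjustment). Between lactating and non-lactating cows it was 0.37 (unadjusted p = 0.0414 in edgeR), again with 1 member against 3.57% (0.0% after adjustment). These comparisons include the libraries that matched another animal, and without them 0 members were called as well, but between lactating cows and heifers the members with an unadjusted p under 0.05 rose from 2 to 6, against 8.18% of all genes, and between lactating and non-lactating cows from 1 to 2, against 3.31%.

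In the contralateral isthmus, HMOX1 had the smallest p in both comparisons of lactating cows. It was at 26.1, 13.9, 3.67 and 9.19 CPM in lactating cows A to D, at 3.42, 5.13, 2.60, 3.66 and 6.69 CPM in non-lactating cows and at 4.49, 8.12, 4.30, 6.80 and 4.07 CPM in heifers. Lactating cow C lay among the other groups, so the groups overlapped. The log2 fold changes were 1.27 against heifers (unadjusted p = 0.0195 in edgeR, 3 members against 10.7% of all genes, 0.0% after adjustment) and 1.64 against non-lactating cows (unadjusted p = 0.0062 in edgeR, 3 members against 3.94%, 0.0% after adjustment). Between non-lactating cows and heifers the smallest p was that of GSTT2 (-0.75, unadjusted p = 0.0299 in edgeR), with 3 members against 9.18% of all genes (0.0% after adjustment). In the contralateral ampulla the smallest p belonged to GSTT1 between lactating cows and heifers (-0.65, unadjusted p = 0.0239 in edgeR), with 4 members against 4.73% (0.0% after adjustment). It belonged to HMOX1 between non-lactating cows and heifers (-0.98, unadjusted p = 0.0234 in edgeR), with 2 members against 4.35% (0.0% after adjustment). Between lactating and non-lactating cows it was GPX3 (-0.72, unadjusted p = 0.0215 in edgeR), with 3 members against 5.06% (0.0% after adjustment).

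Other genes of redox control were listed beside the members, 111 in all. The lists were drawn up with earlier results of these data known, so their counts are no independent support. In the isthmus with the metabolic groups together, 33 of the 91 tested were higher ipsilaterally and 8 were lower, against 14.9% and 13.5% of all genes. Metallothioneins, small metal-binding proteins that also scavenge oxidants, were higher for 4 of 4 tested, with log2 fold changes of 1.77 for MT3 (SE 0.37, adjusted p = 0.000588), 1.29 for MT2A (SE 0.23, adjusted p = 9.99e-05) and 1.10 for MT1E (SE 0.30, adjusted p = 0.00632). SRXN1, the sulfiredoxin that restores overoxidized peroxiredoxins, was higher by 1.20 (SE 0.22, adjusted p = 0.000149). DUOX1, which produces hydrogen peroxide, was higher by 1.73 (SE 0.51, adjusted p = 0.0118), and CTH, which supplies cysteine for glutathione, by 1.35 (SE 0.41, adjusted p = 0.0136).

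By list, 6 of 18 thioredoxin and glutaredoxin partners were higher and 2 lower, and 6 of 17 genes of glutathione supply were higher and 1 lower. Of 10 genes of NADPH supply 5 were higher, of 7 sources of reactive oxygen 3, of 6 microsomal transferases 1, and none of these was lower. Of 21 genes of NRF2 control and its targets 4 were higher and 3 lower, and of 8 genes of hypoxia or glycolysis 4 were higher and 2 lower. The thioredoxin inhibitor TXNIP, chosen after its values were seen, fell by 0.75 on the log2 scale (SE 0.12, adjusted p = 3e-05) where TXN rose. Within heifers, 9 listed genes were higher and 3 lower of 83, against 5.71% and 4.34% of all genes. In non-lactating cows 8 were higher and 2 lower of 84, against 2.94% and 2.17%, and in lactating cows 0 of 84 were called, against 0.187%. In the ampulla 3 were higher and 2 lower of 92, near the 2.57% and 2.42% of all genes. The side effect was more positive in the isthmus for 8 of 95, against 3.19% of all genes. None of the listed genes was called in the 12 comparisons of metabolic status.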

How the data were processed

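The authors trimmed 100-base single-end reads from stranded total RNA libraries, aligned them to the bovine bosTau7 genome with TopHat2 (version 2.0.13) and counted them per gene with HTSeq (version 0.6.1, stranded, intersection-strict). The deposited values are raw counts per gene for 31903 symbols. Reads aligned to several places were not counted and made up 37.4 to 61.3% of counted alignments; 8.66 to 13.7% lay on genes. Columns were assigned to conditions by name, and the animal numbers in the names gave the pairs. The deviations of paired isthmus libraries from their group means correlated with a median of 0.39 (14 pairs, 11 above 0.1), those of ampulla libraries with 0.266 (12 pairs, 9 above 0.1).

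Counts were tested with edgeR 4.0.16 (R 4.3.3, limma 3.58.1), with TMM scaling, filterByExpr at a minimum count of 10, the quasi-likelihood F test and Benjamini-Hochberg adjustment over all genes tested. A gene was called at an adjusted p under 0.05. Standard errors were derived from the F statistic and the size of the log2 fold change. Each of 25 comparisons was fitted on its own libraries, with the metabolic group as a term where groups were pooled. CPM use TMM library sizes. Alternatives were DESeq2 1.42.0, its size factors in edgeR, no filter, the animal as replicate block, leaving out each animal, and leaving out the 4 libraries that matched another animal, the last also together with the block, which was added after seeing the data. The edgeR test of the isthmus sides in heifers was checked on simulated counts without pairing of libraries. The other fits were not checked in this way.

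Named genes were every compared member called in any comparison, the 5 with the highest mean, the member with the smallest p in each metabolic comparison, and the 6 other redox genes with the largest called change between the sides of the isthmus. Members and lists were chosen with earlier results of these data known. The 47 members were matched to RefSeq symbols for neighbouring genes only, and no sequences were used.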

Additional observations from a re-analysis of the deposited data

Results flagged for a closer look

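The spread of single libraries was examined for 27 members: in all conditions for those with a called log2 fold change over 1 in size between the regions, and in the isthmus conditions for those called between its sides. In 16 of the 216 combinations of member and condition, the highest or lowest library lay far from the others by Dixon's test at the 95% level, which chance alone gives in about 1 in 20 groups. GPX1 was at 570 CPM in the contralateral ampulla of heifer E, against 219 to 237 CPM in the other heifers. GPX3 was at 31.3 CPM in the ipsilateral ampulla of lactating cow D, against 14.2 to 16.0 CPM, and at 46.0 CPM in the contralateral isthmus of lactating cow C, against 162 to 178 CPM. GPX4 was at 35.8 CPM in the ipsilateral isthmus of heifer B, against 23.6 to 26.4 CPM. In the ipsilateral isthmus, PRDX6 was low at 471 CPM in heifer C, against 551 to 576 CPM, and high at 741 CPM in non-lactating cow A, against 443 to 499 CPM. The same tissue of non-lactating cow A held GSTT1 at 158 CPM, against 69.1 to 85.8 CPM, and that of non-lactating cow E held GSTP1 at 47.8 CPM, against 74.9 to 88.5 CPM. NQO1 was at 36.3 CPM in the contralateral isthmus of heifer C, against 27.4 to 29.4 CPM, and at 21.0 CPM in the ipsilateral isthmus of lactating cow B, against 43.4 to 45.3 CPM. GSTM1 was at 11.8 CPM in the contralateral isthmus of heifer D, against 18.7 to 22.2 CPM, and NFE2L2 was at 144 CPM in that of non-lactating cow D, against 177 to 182 CPM. GSTT4 was at 1.89 CPM in the contralateral isthmus of lactating cow D, against 0.602 to 0.648 CPM, and at 0.165 CPM in the contralateral ampulla of non-lactating cow E, against 2.55 to 4.61 CPM. SOD3, the extracellular superoxide dismutase, stood out in heifer E on both sides of the isthmus, at 13.9 CPM contralaterally and at 3.09 CPM ipsilaterally, with a count of 0 in the lowest other heifer on each side.

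The effect of side differed between isthmus and ampulla by 0.94 on the log2 scale for TXN, 0.65 for PRDX1, 0.73 for GPX4 and 0.65 for GSTT1, each tested in edgeR as the difference itself.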

How the results depend on the processing

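No called member changed direction under any alternative tried. In the pooled comparison of isthmus sides, 14 of the 18 members called passed under every alternative, the exceptions being GCLM, GSTM3, GSTT1 and TXNRD1; 23 of 25 and 17 of 19 did so between regions on the ipsilateral and contralateral side. Within heifers 3 of 13 did, within non-lactating cows 1 of 3, and within lactating cows 0 of 1. Counts that moved by more than 1.5 times were those of the isthmus sides in non-lactating cows (3 members; 5 in DESeq2 and 6 with the replicate block) and in lactating cows (1; 3 and 4), of the ampulla sides in heifers (0; 1 in DESeq2), of the pooled ampulla sides (3; 1 without the libraries that matched another animal), of lactating cows against heifers in the ipsilateral isthmus (0; 1 in DESeq2), and of the difference of the side effect between regions (4; 8 with the replicate block and 2 without those libraries). Leaving out 1 animal at a time gave 3 to 14 members in the isthmus of heifers, 1 to 3 in non-lactating cows, 0 in each case in lactating cows, 16 to 20 with the groups together, 1 to 3 in the pooled ampulla, 2 to 7 for the difference between regions, and 24 to 26 and 17 to 21 between regions on the ipsilateral and contralateral side. Between the isthmus sides, DESeq2 called 8.33% of all genes in non-lactating cows and 2.24% in lactating cows. The causes were not tested. Leaving out animals also leaves fewer libraries in the smallest groups, and members near 1 CPM, such as SOD3 and GSTT4, rest on few counts.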

Other observations

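In the contralateral ampulla, heifer E had the highest value of the 14 libraries for 17 of the 47 members, and the next library had the highest value for 6. These values were chosen after they were seen. In that library PRDX6 was at 724 CPM, against 260 to 380 CPM in the other heifers, whereas TXN (43.1 CPM) and PRDX3 (148 CPM) lay within their range.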
